A study of Mus musculus with 36 samples.

Results

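Whole small intestine of gluten-challenged mice with and without the long noncoding RNA lnc13 is described here, gene by gene and library by library. The 4 members were chosen by their titles as the whole tissue libraries, 2 from lnc13-WT-DQ8 mice and 2 from lnc13-KO-DQ8 mice, out of 36 samples in the series. Every mouse in the comparison, control or knockout, had been given gluten and carried DQ8, so each knockout value stands against a gluten-fed DQ8 wild type and there was no library without gluten. The labels give no sex, age, strain background, gluten dose or time after the challenge, and they do not say which stretch of the small intestine was frozen. They number the libraries of each genotype 1 and 2 as biological replicates and do not say whether equal numbers share a litter, cage or day. p-values rest on the spread within the 6 groups of a fit of 12 libraries. These were the tissue libraries and the isolated lamina propria (LPL) and intraepithelial (IEL) cells of the series. Within a tissue genotype that spread lies between replicates 1 and 2, which differed in sex markers and tissue content, as described below. The unadjusted p was under 0.05 for 463 of 14716 genes in this fit. With the 4 tissue libraries alone it was so for 134 of 13404.

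lnc13 is a noncoding RNA of the Il18rap neighbourhood, where the human region carries variants associated with coeliac disease, and in macrophages it is known to hold down a set of inflammatory genes. DQ8 is an HLA class II molecule that presents gluten peptides to T cells and raises the risk of coeliac disease. In the small intestine, stem cells at the base of the crypts give rise to dividing progenitors, which mature into absorptive enterocytes and mucus-producing goblet cells as they move up the villus, above a lamina propria of plasma cells, T cells, macrophages and stroma.

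The libraries held 10829352 to 13620975 reads in genes, and 16623 to 18725 genes had a read. Values are in CPM, which are read counts scaled to a common library size with TMM normalization factors. Where 4 follow each other, the order is WT replicate 1, WT replicate 2, KO replicate 1 and KO replicate 2. Epcam, an adhesion protein of all intestinal epithelium, was 2598, 3945, 3843 and 4865 CPM, and the defining enterocyte, goblet and Paneth cell markers (Alpi, Muc2 and Lyz1) were above 100 CPM in each library, as the label of intestine states. Pancreatic Pnlip was at or near 0 in all 4. Both replicate 2 libraries carried Y-linked transcripts (Eif2s3y at 43.1 CPM in WT and 52.0 in KO, against 0 in both replicate 1 libraries), so the replicate numbers separated male from female mice. They also separated several genes known to vary along the gut, but not the region lists as a whole. Lct, the lactase of the proximal small intestine, was 81.2 and 211 CPM in WT and KO replicate 1 and 0.330 and 0.359 in replicate 2, while Slc10a2, the ileal bile acid transporter, was 208 and 344 in replicate 1 and 1075 and 1238 in replicate 2. Over the 14 proximal and 14 distal intestine genes the median of replicate 2 minus replicate 1 was only -0.05 and 0.15 on the log2 scale, and ileal Fabp6 was lower in replicate 2 in both genotypes, so the labels and these lists do not fix which stretch each library came from. WT replicate 1 and KO replicate 1 correlated at 0.983 over log2 values across genes, and WT replicate 2 and KO replicate 2 at 0.981, above the 0.954 of the WT libraries and the 0.953 of the KO libraries. Each genotype thus held 1 male and 1 female library, and KO minus WT within a replicate number compares libraries of the same sex by these markers. In addition, 2 libraries stood apart. WT replicate 1 was the only library rich in B cell transcripts, and KO replicate 2 had 15.4% of its reads in its 10 most abundant genes against 8.79% to 9.80% in the others.

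**Figure D1:**
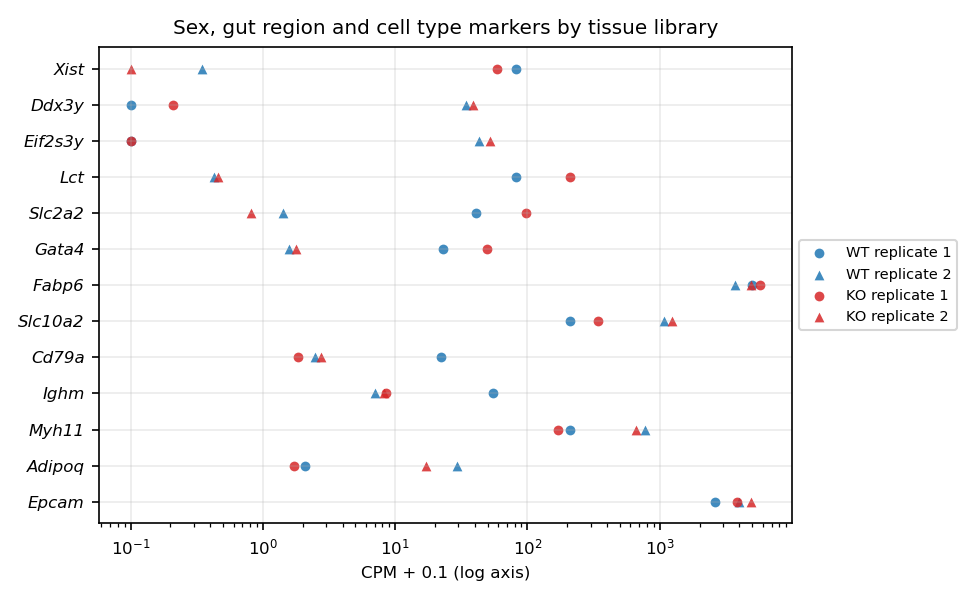
Level of sex, gut region and cell type markers in the 4 whole tissue libraries, as CPM + 0.1 on a log axis. Circles are replicate 1 and triangles replicate 2, blue is WT and red is KO. The Y-linked Ddx3y and Eif2s3y and the region-dependent genes Lct, Slc2a2 and Gata4 separate the replicate numbers, not the genotypes, and the B cell genes Cd79a and Ighm are highest in WT replicate 1.

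No gene passed the test between KO and WT tissue. With edgeR's quasi-likelihood test and Benjamini-Hochberg adjustment over 14716 genes, 0 were higher and 0 lower at an adjusted p under 0.05 (0% each way), and the smallest adjusted p was 1. At an unadjusted p under 0.05 there were 291 higher (1.98%) and 172 lower (1.17%), 3.15% of genes in all. Both KO libraries lay above both WT libraries in 1949 genes (13.2%) and below both in 1812 (12.3%). KO was above WT within both replicate numbers in 4135 genes (28.1%) and below in 4398 (29.9%). The median log2 difference over all genes tested was -0.01, and 48.6% of genes had a difference above 0. These shares are the background for every count that follows. Of 971 genes on the lists used here, 905 passed the filter on low counts, and counts of list members are over those. The gene-level values below are descriptions of 4 libraries, and none of them is a called change by this test. DESeq2's Wald test, run as an alternative, called 6 genes, 2 of them described below. In simulated data of this design the test recovered 7.5% of genes set to differ 2-fold, 77.6% at 4-fold and 92.4% at 8-fold. Differences near 2-fold were therefore mostly below what it could call. The changed genes were drawn from those at 5 CPM or more in tissue, and replicates 1 and 2 had the same mean. The real replicates differed in sex markers and in tissue content. The medians of replicate 2 minus replicate 1 were 1.59 for smooth muscle, 1.73 for fibroblast and -1.94 for tuft cell genes. The main test counted these differences as spread within a genotype, so the simulated shares need not hold.

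Few genes separated the genotypes widely. Of genes with a mean of at least 5 CPM, leaving out predicted, sex-linked and immunoglobulin genes, only Hsd17b6, Lrg1 and Unc93a2 had their lowest KO library more than 2-fold above their highest WT library on the scale of log2(CPM + 0.5), and only Pola1 had the opposite gap. Unc93a was just under that limit on this scale. Hsd17b6 (gene ID 27400, chromosome 10 from 127990931 to 128007648 in GRCm38) encodes a hydroxysteroid and retinol dehydrogenase. It was 5.69 and 3.88 CPM in WT and 16.7 and 16.9 CPM in KO, a log2 difference of 1.81 (SE 0.27), and was 1.48 higher within replicate 1 and 1.99 within replicate 2. DESeq2's Wald test gave it an adjusted p of 0.00101. The KO values were nearly equal in the male and the female library. Gprc5a, a retinoic acid-inducible orphan receptor of epithelia, was 64.3 and 57.4 CPM in WT and 149 and 121 in KO (log2 1.15, SE 0.23), with an adjusted p of 0.00885 in DESeq2's Wald test. Unc93a2 and Unc93a, closely related genes whose reads the counting may have shared, were 12.2 and 13.0 CPM and 11.8 and 10.1 CPM in WT, and 27.5 and 33.3 CPM and 24.0 and 25.0 CPM in KO. Lrg1, a leucine-rich acute-phase glycoprotein, was even in WT at 4.57 and 4.54 CPM and uneven in KO at 10.9 and 206, so most of its difference of 4.57 (SE 1.57) lay in KO replicate 2. Adm, the vasodilator peptide adrenomedullin and a hypoxia-responsive gene, was 4.92 and 6.19 CPM in WT and 11.6 and 34.4 in KO (log2 2.05, SE 0.47).

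Among the genes with the widest gap in the other direction were several with a role in dividing cells, a grouping made after they were seen and not tested. Pola1 (gene ID 18968, chromosome X from 93304766 to 93632387 in GRCm38), the catalytic subunit of the polymerase that primes replication, was 10.4 and 9.98 CPM in WT and 4.57 and 3.71 in KO (log2 -1.29, SE 0.35), lower by 1.10 within replicate 1 and by 1.32 within replicate 2. The spindle protein gene Hmmr was 18.5 and 14.8 CPM in WT and 9.13 and 7.78 in KO (log2 -0.97, SE 0.37). The condensin subunit genes Ncapg and Ncapg2 had the same order, with KO values between 5.22 and 7.18 CPM and WT values between 11.3 and 12.3. Clu, an extracellular chaperone that marks damage-induced stem cells in the crypt, was 62.0 and 19.0 CPM in WT and 9.02 and 12.5 in KO (log2 -1.92, SE 0.51). There WT replicate 1 stood far above the rest. The purine synthesis enzyme gene Paics was 25.6 and 26.6 CPM in WT and 15.7 and 17.1 in KO.

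**Figure D2:**
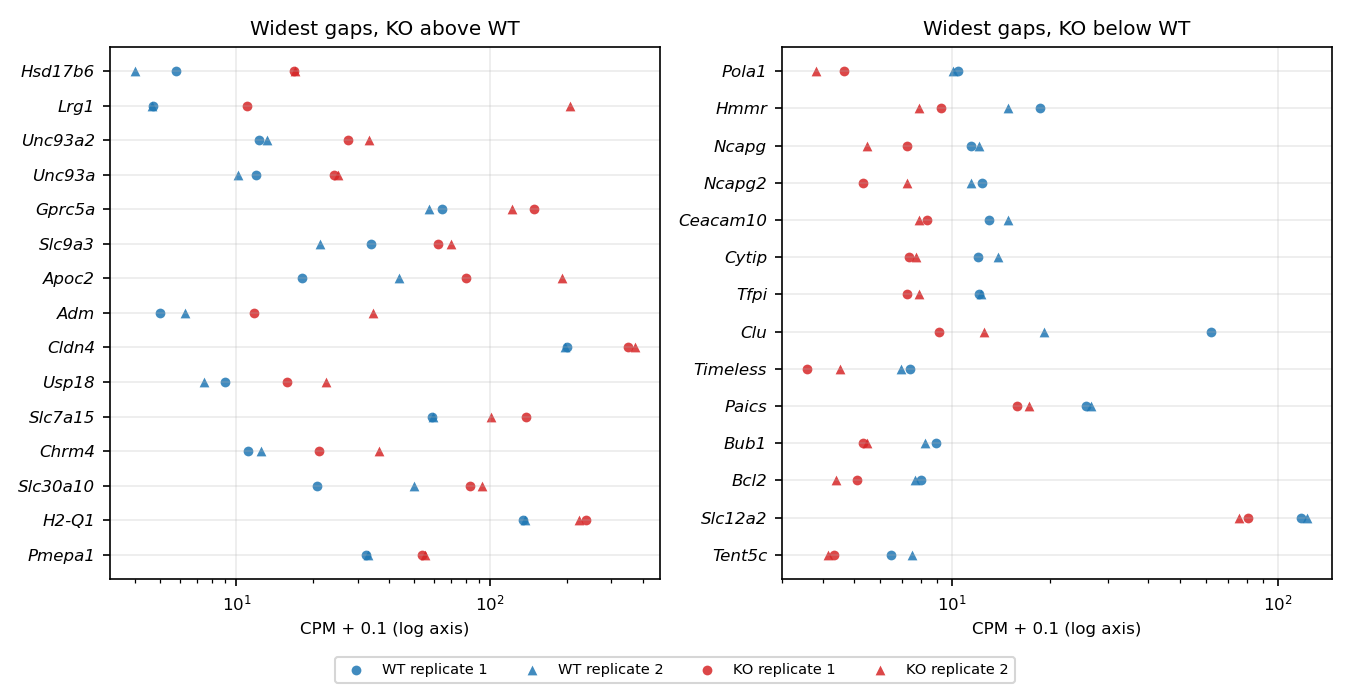
CPM + 0.1 (log axis) in each library for up to 15 genes per direction with the widest gap between the nearest KO and WT libraries, among genes with a mean of at least 5 CPM. Red KO points lie to the right of blue WT points in the left panel and to the left in the right panel for every gene, as the choice of genes requires. Lrg1 and Clu each have 1 library far from the other 3.

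Stem cell, Wnt and cell cycle genes were lower in KO within both replicate numbers in most cases. Of 15 stem cell and Wnt genes, 14 had a negative difference, 13 were lower within both replicate numbers and 6 had both KO libraries below both WT libraries (median -0.48, against -0.01 for all genes). Of 22 cell cycle genes 21 had a negative difference, 19 were lower within both numbers and 13 did not overlap between genotypes (median -0.57). None passed the test. The medians within replicate 1 and replicate 2 were -0.52 and -0.43 for stem cell genes and -0.59 and -0.43 for cell cycle genes. Leaving out each library in turn gave medians from -0.67 to -0.27 and from -0.85 to -0.25, each nearest to 0 without WT replicate 1. In bulk tissue fewer cells of a type and less RNA per cell cannot be told apart, nor can the type of dividing cell.

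Olfm4, a secreted marker of crypt base stem cells, was 148 and 92.5 CPM in WT and 82.4 and 40.4 in KO (log2 -0.97, SE 0.44). Cdca7, a Myc-responsive gene of crypt progenitors, was 33.05 and 25.6 CPM in WT and 21.4 and 13.5 in KO (log2 -0.74, SE 0.33). Slc12a2, the chloride-loading transporter of the secretory crypt epithelium, was 118 and 123 CPM in WT and 80.7 and 75.8 in KO (log2 -0.62, SE 0.32). In all 3 both KO libraries were below both WT libraries. Lgr5, the receptor that defines crypt base columnar cells, overlapped at 4.83 and 8.66 CPM in WT and 4.35 and 4.91 in KO. Axin2, a feedback target of Wnt signalling, was 74.2 CPM in WT and 94.4 in KO in replicate 1, and 85.8 in WT and 53.4 in KO in replicate 2. Pcna, the sliding clamp of DNA replication, was 100.3 and 88.2 CPM in WT and 73.4 and 66.5 in KO (log2 -0.43, SE 0.22), and Mki67, the proliferation antigen, was 96.4 and 101.1 against 70.2 and 75.6. Mcm6, a subunit of the replicative helicase, was 63.2 and 42.1 CPM in WT and 39.1 and 28.4 in KO (log2 -0.64, SE 0.34). Rrm2, the small subunit of ribonucleotide reductase, was the exception of the cell cycle list, at 20.3 and 13.9 CPM in WT and 13.7 and 21.7 in KO. Of the 13 genes with a mean of at least 5 CPM that were over 2-fold lower in KO within both replicate numbers, on the scale of log2(CPM + 0.5), 11 were immunoglobulin genes, and the other two were Pola1 and the chromatin assembly factor gene Chaf1b (9.66 and 5.61 CPM in WT, 4.02 and 2.27 in KO), named after their values were seen.

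Paneth cells share the crypt base with the stem cells and secrete antimicrobial peptides. Their list was lower in 14 of 16 members but with smaller differences (median -0.27). In 2 members both KO libraries lay below both WT libraries, against 12.3% of all genes. The defining marker Lyz1, a lysozyme, was 1932 and 2418 CPM in WT and 1986 and 1541 in KO, and the lectin gene Itln1 was 1418 and 752 in WT and 1401 and 595 in KO. The list median moved to 0.14 without WT replicate 1 and to -0.86 without KO replicate 1. Reads of the near-identical defensin genes in this list cannot be assigned with certainty.

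Genes of mature absorptive cells had the opposite direction from stem cell and cell cycle genes, more so in replicate 1. Of 16 mature enterocyte genes 15 had a positive difference and 10 were higher within both replicate numbers (median 0.65, 1.01 within replicate 1 and 0.13 within replicate 2). Creb3l3, a transcription factor of lipid metabolism in enterocytes, was 149 and 175 CPM in WT and 321 and 207 in KO (log2 0.71, SE 0.27). Klf4, a differentiation factor of villus cells, was 435 and 657 CPM in WT and 749 and 823 in KO (log2 0.52, SE 0.24). Alpi, the brush border alkaline phosphatase, was 277 CPM in WT replicate 1 and between 611 and 782 in the other three. For the summed pan-epithelial list WT replicate 1 was lowest on the TMM-scaled values, at 20290 CPM against 22690 in WT replicate 2 and 25680 and 25390 in KO. That order depends on the TMM factors, which were 1.03 and 0.891 in WT and 0.850 and 0.730 in KO. The part of WT replicate 1 in the enterocyte result was not tested. Without that library the enterocyte median was 0.35.

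Genes that package dietary fat into chylomicrons were higher in KO in most cases and in both replicate numbers. Fatty acids taken up at the brush border are re-esterified to triglyceride, loaded onto apolipoprotein B and secreted into lymph. In this list 16 of 18 genes had a positive difference, 13 were higher within both numbers and 10 had both KO libraries above both WT libraries (median 0.57, 0.86 and 0.27 within replicates 1 and 2). Leaving out each library gave medians from 0.35 to 0.70. Apob, Apoa1, Apoa4, Apoc3, Fabp1 and Fabp2 are also on the mature enterocyte list, so both results share genes. Apoc2, the lipoprotein lipase cofactor carried on chylomicrons, was 17.9 and 43.5 CPM in WT and 79.8 and 192 in KO (log2 2.15, SE 0.60), higher by 2.12 within replicate 1 and by 2.13 within replicate 2. Its level differed between the replicate numbers in both genotypes, while the KO difference was the same in each.

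Along the route of fat, Slc27a4, the brush border fatty acid transporter, was 813 and 1445 CPM in WT and 1758 and 2260 in KO (log2 0.83, SE 0.37). The triglyceride synthesis gene Dgat2 was 179.6 and 219 CPM in WT and 322 and 363 in KO (log2 0.78, SE 0.25). Mttp, which transfers lipid onto apolipoprotein B, was 1047 and 1266 CPM in WT and 2013 and 1983 in KO (log2 0.79, SE 0.31). In all 3 both KO libraries lay above both WT libraries. Apoa4, a chylomicron apolipoprotein, was 217 and 229 CPM in WT and 669 and 304 in KO, with the larger KO value in replicate 1. The 2 genes with a negative difference were Cd36, a fatty acid scavenger receptor, and Plin2, which coats cytosolic lipid droplets and was 64.97 and 78.3 CPM in WT and 62.4 and 44.7 in KO. The binding proteins of the cytosol were less uniform. Fabp1, the liver type, was 46.2 and 85.1 CPM in WT and KO replicate 1 and 1.40 and 0.599 in replicate 2, and Fabp6, the ileal bile acid binding protein, was 4959 and 3730 CPM in WT and 5739 and 4897 in KO.

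**Figure D3:**
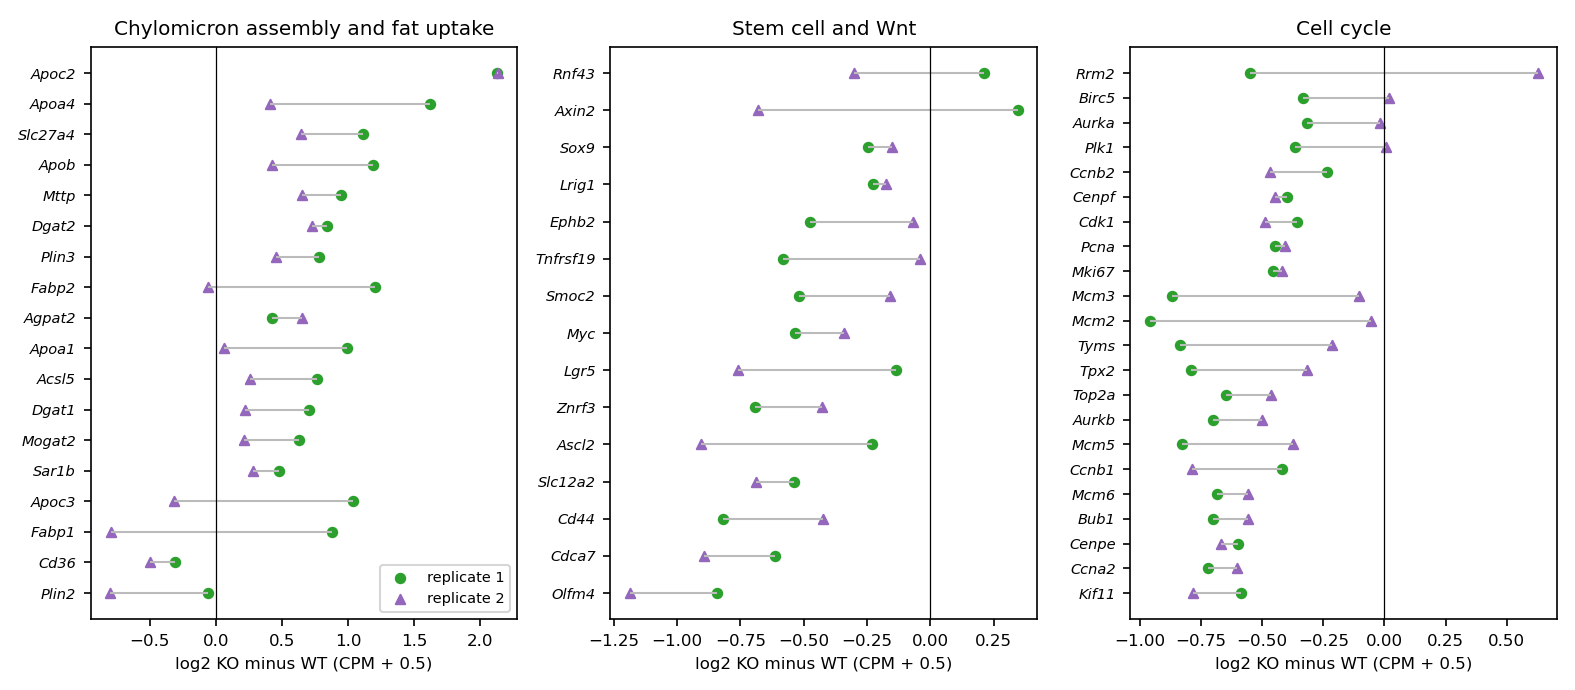
KO minus WT within replicate 1 (green circles) and within replicate 2 (purple triangles), as log2 of CPM + 0.5, for the genes of 3 lists. Most chylomicron genes lie right of 0 in both replicate numbers, with Apoc2 at 2.12 and 2.13, and most stem cell and cell cycle genes lie left of 0 in both, with Olfm4 at the lower end.

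Genes that absorb sterols and amino acids were higher in KO in most cases, more so in the replicate 1 mice. Of 17 genes of sterol and bile acid transport 15 had a positive difference (median 0.26), among them Npc1l1, the cholesterol importer, at 733 and 1368 CPM in WT and 1686 and 1768 in KO (log2 0.72, SE 0.37). Peptide and amino acid transporters were positive in 10 of 12 (median 0.55). Slc3a2, the heavy chain shared by several amino acid exchangers, was 246 and 231 CPM in WT and 400.5 and 351 in KO (log2 0.65, SE 0.21), without overlap. Slc7a7, its partner in exporting basic amino acids to blood, was 318 and 432 CPM in WT and 516 and 752 in KO (log2 0.76, SE 0.35). Brush border peptidases were positive in 11 of the 13 tested, with a median of 0.84 within replicate 1 and -0.02 within replicate 2, and of 0.02 overall without WT replicate 1. Cytochrome P450 genes had opposite medians in the 2 replicate numbers, 0.92 and -0.43. Proximal intestine genes had a median of 0.76 that was -0.43 without KO replicate 1, when only a replicate 2 library stands for the knockout. Within replicate 2 the median was 0.16, and 8 of the 14 genes were higher within both numbers.

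Among ion transporters, Slc9a3, the sodium-hydrogen exchanger that drives salt uptake, was 33.7 and 21.3 CPM in WT and 62.1 and 70.2 in KO (log2 1.26, SE 0.40). Both KO libraries were above both WT libraries although the list as a whole was split, with 10 of 20 members higher and 10 lower. Slc30a10, a manganese exporter, was 20.7 and 49.9 CPM in WT and 82.9 and 92.3 in KO (log2 1.31, SE 0.46). Gclc, the rate-limiting enzyme of glutathione synthesis, was 62.6 and 73.5 CPM in WT and 105 and 117 in KO (log2 0.71, SE 0.18), and was higher by 0.74 and 0.67 within the replicate numbers.

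Tight junction genes were higher in KO in most cases. Tight junction strands of claudins seal the space between epithelial cells, and loss of that seal is a known feature of coeliac mucosa. Here 13 of 16 tight junction genes had a positive difference, 10 within both replicate numbers, and 6 had both KO libraries above both WT libraries (median 0.31, 0.27 and 0.31 within replicates 1 and 2). Without KO replicate 2 the median was 0.17. With library totals in place of TMM factors it was 0.02, against an all-gene median of -0.29 on that scale. Cldn4, a claudin of the villus tip, was 200.3 and 197 CPM in WT and 348 and 372 in KO (log2 0.86, SE 0.36). F11r, the junctional adhesion molecule JAM-A, was 315 and 349.5 CPM in WT and 441 and 504 in KO (log2 0.51, SE 0.17). Neither gene overlapped between genotypes, and each differed by about the same amount in both replicate numbers. The goblet cell list was split, with 9 of 16 members positive and 7 negative, 4 of them lower within both replicate numbers (median 0.04). Within it the gel-forming mucin gene Muc2 was 1662 and 1484 CPM in WT and 2274 and 2166 in KO (log2 0.50, SE 0.34), and the membrane mucin gene Muc3 was 3787 and 2105 in WT and 5988 and 6546 in KO (log2 1.09, SE 0.46). Clca1, a secreted goblet cell protein, was lower in each number, at 4799.5 and 3093 CPM in WT and 4411 and 2567 in KO.

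Several epithelial defence genes, grouped here after their values were seen, were high in KO replicate 2 alone. The Reg3 lectins are antibacterial proteins of the epithelium, induced by interleukin 22. Reg3g was 8087 and 10397 CPM in WT and 8690 and 44512 in KO, and Reg3b was 15278 and 24747 in WT and 16189 and 66889 in KO. Reg3a was 36.7 and 38.9 CPM in WT and 50.9 and 389 in KO (log2 2.54, SE 0.74). KO replicate 1 thus stood near the WT libraries for all 3 lectins. The Reg list as a whole was split, with 4 of 7 members positive and 3 negative, and Reg4, a Reg protein of secretory cells, was 146 and 42.9 CPM in WT and 153 and 8.50 in KO. The same library led for Saa1, the acute-phase serum amyloid (499 and 1008 CPM in WT, 697 and 4998 in KO), and for Socs3, the feedback inhibitor of STAT3 signalling (39.6 and 63.03 in WT, 38.9 and 313 in KO). Fut2, the fucosyltransferase of the epithelial surface, was 66.0 and 65.9 CPM in WT and 88.8 and 495 in KO. Il22 itself was 1.80 CPM in KO replicate 2 and at most 0.0863 in the other three. Without KO replicate 1, when KO replicate 2 alone stood for the knockout and was assumed to vary like the other groups, edgeR's quasi-likelihood test called Reg3a (adjusted p = 0.043), the sulfotransferase gene Chst4 (0.0297) and the stress phosphatase gene Ppp1r15a (0.0297), named after their values were seen. Chst4 was 22.95 and 28.0 CPM in WT and 28.7 and 229 in KO, and Ppp1r15a was 11.8, 11.96, 10.3 and 71.8.

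Type I interferon response genes had higher KO values in nearly all cases. Type I interferon is made on sensing of nucleic acid and induces antiviral genes, many of them through repeats of GAAA in their promoters. Of 28 listed genes 26 had a positive difference, 22 were higher within both replicate numbers and 10 had both KO libraries above both WT libraries (median 0.68, 0.58 within replicate 1 and 0.83 within replicate 2). Without KO replicate 2 the median was 0.06, and without WT replicate 1 it was 0.34, while it was 1.25 without WT replicate 2 and 1.14 without KO replicate 1, so its size moved with each library and its sign with none. RefSeq promoter windows of GRCm38.p6, reaching from 250 bases before to 50 bases after a start site, were found for 19 of the 28, and 12 of these 19 held GAAA, any 2 bases and GAAA again on either strand, against 3.99% of the 27025 genes in the table (3.44% of its 32851 windows). The 3 with the smallest p among these 12 are printed. The RNA of each was higher in KO in both replicate numbers. A choice by small p favours genes that differ, and 22 of the 28 were higher in both, so this adds no support. Each is the 130 bases just before the start, 5′ to 3′ on the strand of the gene, with the matches in capitals. All are on the minus strand, Rsad2 at chr12:26456453-26456582, Isg15 at chr4:156200819-156200948 and Oas1g at chr5:120887614-120887743.
Rsad2: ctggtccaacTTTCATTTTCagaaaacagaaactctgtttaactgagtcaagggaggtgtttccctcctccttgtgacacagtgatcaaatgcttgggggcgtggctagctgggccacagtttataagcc
Isg15: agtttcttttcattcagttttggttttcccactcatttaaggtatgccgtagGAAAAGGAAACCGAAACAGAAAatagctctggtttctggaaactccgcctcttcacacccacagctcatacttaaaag
Oas1g: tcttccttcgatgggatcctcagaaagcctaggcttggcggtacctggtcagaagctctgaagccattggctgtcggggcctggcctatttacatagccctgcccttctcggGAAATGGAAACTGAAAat

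Rsad2, which encodes the antiviral enzyme viperin, has 1 match on the opposite strand, near the upstream end of the printed stretch. It was 4.49 and 10.8 CPM in WT and 12.2 and 35.2 in KO (log2 1.63, SE 0.89), higher by 1.35 and 1.66 within the replicate numbers. Isg15, the ubiquitin-like interferon protein, has 3 overlapping matches and was 5.69 and 21.9 CPM in WT and 16.3 and 50.05 in KO, so the genotypes overlapped while each KO library exceeded its same-numbered WT library. Oas1g, a sensor of double-stranded RNA with 2 overlapping matches next to its start, was 17.4 and 22.7 CPM in WT and 28.4 and 66.6 in KO (log2 1.24, SE 1.01). KO replicate 2 was the highest library for all 3. Oasl1, a related gene, was 76.7 and 132 CPM in WT and 147 and 432 in KO (log2 1.47, SE 0.65), and Usp18, which removes ISG15 from proteins, was 8.89 and 7.34 in WT and 15.7 and 22.4 in KO (log2 1.23, SE 1.19). In the LPL and IEL preparations, the isolated lamina propria and intraepithelial cells of the same study, the list medians were -1.67 and -0.30. In 11 of the 28 genes the unadjusted p of the difference between tissue and LPL was under 0.05, against 1.96% of all genes, and in 0 of the 28 for the difference between tissue and IEL, against 0.836%. None passed the adjusted test. The medians of the T cell and B cell lists in LPL were -3.09 and -3.24, and their part in the LPL value was not tested.

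Interferon gamma targets did not share that direction. Of 24 genes of the GBP and IRG families and related targets, 13 had a positive and 11 a negative difference, and 0 had groups that did not overlap (median 0.01). KO was above WT in replicate 1 and below it in replicate 2, with medians of 0.43 and -0.41. Gbp2, an interferon-induced guanylate binding protein, was 15.8 and 78.1 CPM in WT and 23.7 and 46.1 in KO. The 2 replicate 2 libraries were above the 2 replicate 1 libraries, whatever the genotype. Class I antigen presentation genes had a median of 0.15, and H2-Q1, a class Ib chain whose reads may be shared with its near-identical neighbours, was 135 and 137 CPM in WT and 239 and 224 in KO (log2 0.77, SE 0.22). Mouse class II H2-Ab1 was 321, 635, 502 and 633 CPM, so transcripts of the endogenous class II locus were present in all 4 libraries beside the DQ8 of the labels.

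NF-kB genes were higher in KO, largely through KO replicate 2. NF-kB is the factor through which receptors for microbial products, TNF and interleukin 1 induce inflammatory genes, among them its own inhibitors. Of 26 listed genes tested, 22 had a positive difference and 14 were higher within both replicate numbers (median 0.43), and 8 had both KO libraries above both WT libraries. The median was 0.12 within replicate 1, 0.53 within replicate 2 and 0.02 without KO replicate 2. Among the inhibitors, Tnip1, which restrains NF-kB with A20, was 127 and 165 CPM in WT and 204 and 277 in KO (log2 0.72, SE 0.20), higher by 0.68 and 0.75 within the replicate numbers. Nfkbia, which encodes IkB alpha, was 120.4 and 108 CPM in WT and 136 and 263 in KO (log2 0.80, SE 0.36). Tnf was low in 3 libraries at 1.04, 1.15 and 0.652 CPM and was 9.10 in KO replicate 2. Immediate early genes, which respond to many stimuli within minutes and also to tissue handling, were positive in 16 of 22 (median 0.47), with 9 that had both KO libraries above both WT libraries, and the median was 0.17 without KO replicate 2. Zfp36, which destabilizes cytokine mRNA, was 190.3 and 190.9 CPM in WT and 239 and 385 in KO (log2 0.71, SE 0.25), and Fos was 180.1 and 236 in WT and 299.7 and 303 in KO (log2 0.54, SE 0.24).

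**Figure D4:**
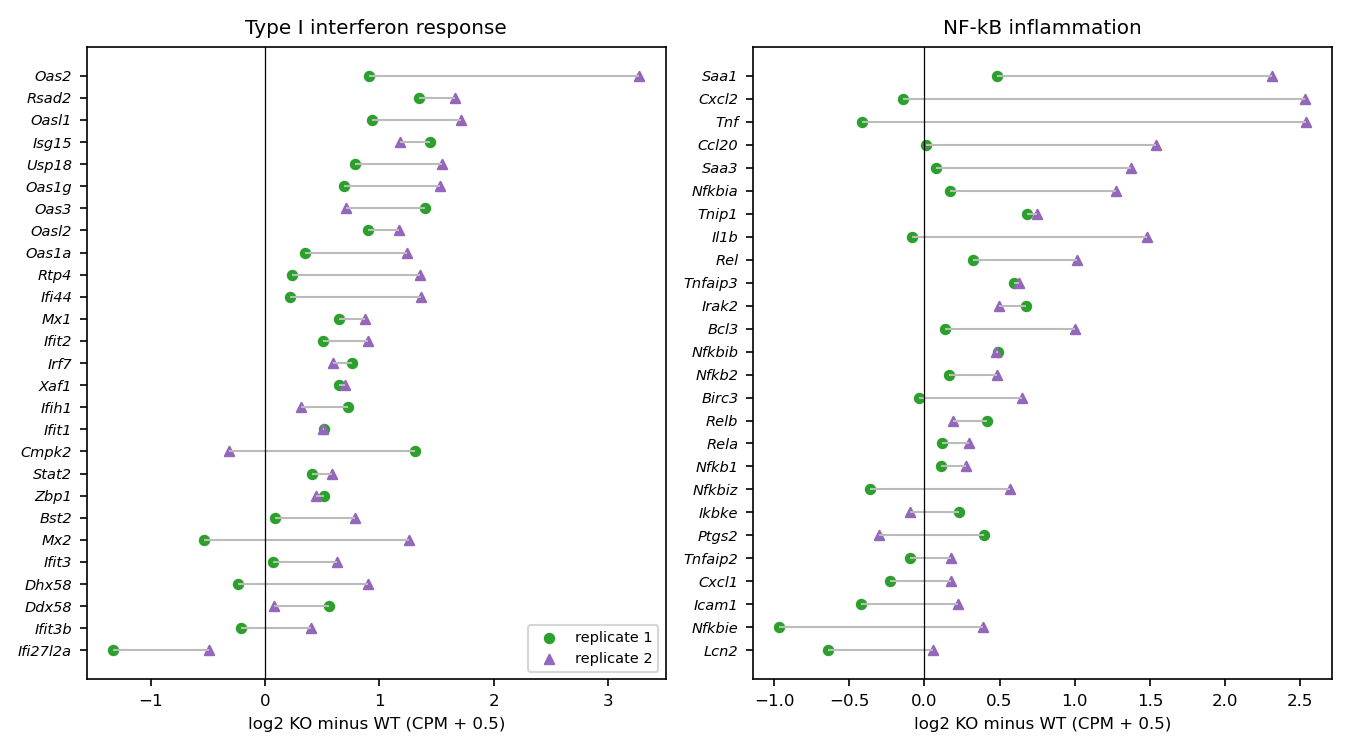
KO minus WT within replicate 1 (green circles) and replicate 2 (purple triangles), as log2 of CPM + 0.5, for genes of the type I interferon response and NF-kB lists. Interferon genes lie mostly right of 0 in both replicate numbers, while several NF-kB genes, such as Tnf and Cxcl2, are right of 0 in replicate 2 only.

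In the IL-18, IL-1 and IL-33 system the ligand gene Il18 was higher in both KO libraries, while the genotypes overlapped for its receptor chains. IL-18 is stored in epithelial cells as a precursor, cleaved by caspase 1 in the inflammasome and released through gasdermin D pores, and it signals through Il18r1, Il18rap and MyD88. Il18 was 24.2 and 31.1 CPM in WT and 48.6 and 88.5 in KO (log2 1.31, SE 0.34), higher by 0.99 within replicate 1 and by 1.49 within replicate 2. Gsdmd, the gasdermin, was 148 and 220.4 CPM in WT and 237 and 379.8 in KO (log2 0.74, SE 0.31). Il33, an alarmin of the same family, was 8.11 and 8.74 CPM in WT and 12.8 and 14.97 in KO (log2 0.72, SE 0.37). In all 3 both KO libraries lay above both WT libraries. The adaptor gene Myd88 was 35.2 and 41.8 CPM in WT and 49.5 and 47.7 in KO (log2 0.33, SE 0.15). Over the list of 22 genes 14 were positive and 8 negative (median 0.25), and without KO replicate 2 the median was -0.03. In 6 both KO libraries lay above both WT libraries and in 1 below, against 13.2% and 12.3% of all genes.

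The interleukin receptor genes around Il18rap on chromosome 1 were at 14.2 CPM or less in every tissue library. Il18rap was 0.259 and 0.742 CPM in WT and 0.326 and 1.56 in KO, and Il18r1 was 3.19 and 4.04 in WT and 3.70 and 4.19 in KO. The genotypes overlapped for both, and the Il18rap values rest on few reads. The IL-33 receptor gene Il1rl1 was 14.2 and 6.19 CPM in WT and 8.26 and 11.3 in KO, and the decoy receptor gene Il1r2 was 1.04 and 0.495 in WT and 0.870 and 1.08 in KO. Slc9a2, a sodium-hydrogen exchanger, was 280.3 and 579 CPM in WT and 433 and 699 in KO. Of the 8 locus genes that passed the filter on low counts, 6 had a positive and 2 a negative difference. In 1 both KO libraries lay above both WT libraries, against 13.2% of all genes. Slc9a4 and Tmem182 did not pass the filter. lnc13 itself was not analysed here, so the genotype labels were not checked against its own RNA.

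B cell genes were high in WT replicate 1 and low in the other three libraries. All 16 had a negative KO difference (median -2.41), and the median was -2.60 within replicate 1 and 0.17 within replicate 2, and 0.27 without WT replicate 1. The summed list was 210.4 CPM in WT replicate 1 and 23.1 in WT replicate 2, against 40.9 and 27.2 in KO. Cd79a, a chain of the B cell receptor, was 22.3 and 2.39 CPM in WT and 1.74 and 2.63 in KO. Immunoglobulin transcripts showed another pattern. The 158 immunoglobulin variable segments were lower in 126 cases, with medians of -0.50 and -0.73 within the replicate numbers, and 59 had both KO libraries below both WT libraries. Summed, they were 408 and 913 CPM in WT and 163 and 402 in KO. Igha, the constant region of secreted mucosal IgA, was 949.7 and 2192 CPM in WT and 418 and 1207 in KO (log2 -0.95, SE 0.95), and Jchain, which joins IgA dimers, was 180.2 and 661 in WT and 67.9 and 350.2 in KO. Both were higher in replicate 2 in either genotype, and within each number the KO library was lower. Variable segments share sequence, so reads of single segments are uncertain.

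T cell and cytotoxic genes showed no shared direction in tissue. The T cell list had 11 members higher and 8 lower (median 0.04), the intraepithelial T cell list 13 and 5 (0.23) and the cytotoxic list 10 and 7 (0.05). Cd3e, a CD3 signalling chain, was 6.21 and 3.30 CPM in WT and 12.5 and 4.07 in KO. Gzmb, a granzyme of intraepithelial T cells, was 21.5 and 21.4 CPM in WT and 37.2 and 8.26 in KO, higher in replicate 1 and lower in replicate 2. Ifng was under 1 CPM in every library. Of the 7 mast cell genes tested 5 had a positive difference and 2 a negative one (median 0.80). Mcpt2, a mucosal mast cell protease, was 1.21 and 0.412 CPM in WT and 2.72 and 4.91 in KO (log2 2.22, SE 0.73). The mast cell marker Cpa3 was under 1 CPM in all 4, at 0.173 and 0.165 in WT and 0.217 and 0.958 in KO. For Mcpt1 the genotypes overlapped, at 5.61 and 1.07 CPM in WT and 4.67 and 6.94 in KO. Smooth muscle genes, which show how much muscle wall a piece of tissue held, summed to 1910 and 4971 CPM in WT and 1348 and 4762 in KO, so the replicate numbers differed more than the genotypes. Red cell genes were lower in KO in the 4 of 7 listed members that passed the filter, with Hba-a1 at 5.87 and 5.28 CPM in WT and 0.109 and 3.23 in KO.

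The lists of basic cell functions differed in direction. All 24 cytosolic ribosomal protein genes had a negative difference, 22 were lower within both replicate numbers and 11 did not overlap, with a median of -0.25 (-0.26 and -0.24 within the replicate numbers, and -0.12 without WT replicate 1). Rpl5 was 471 and 437 CPM in WT and 372 and 344 in KO (log2 -0.34, SE 0.23). All 14 glycolysis genes had a positive difference (median 0.40), 0.17 within replicate 1 and 0.70 within replicate 2, and 0.18 overall without WT replicate 2. Pfkp, a phosphofructokinase, was 437 and 444 CPM in WT and 567 and 671 in KO (log2 0.49, SE 0.20), and Hk2, the inducible hexokinase, was 146 and 209.5 in WT and 209.3 and 676 in KO, where KO replicate 2 led. Unfolded protein response genes were positive in 22 of 24 (median 0.22, and 0.05 without KO replicate 2). Sel1l, which clears misfolded proteins from the endoplasmic reticulum, was 129 and 183 CPM in WT and 198 and 261 in KO (log2 0.55, SE 0.22).

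Across the 66 lists, the 2 replicate numbers did not always give the same sign. Among those negative in both were stem cell, cell cycle, ribosomal protein and red cell genes. Plasma cell and IgA transport genes were too (-1.18 and -0.24), with 12 of 15 members lower (median -0.95). Those positive in both included type I interferon, chylomicron, tight junction and immediate early genes. Reg lectins, small proline-rich proteins, glycolysis and NF-kB were far more positive in replicate 2, enterocyte, brush border and P450 genes in replicate 1, and the B cell list was negative in replicate 1 alone. At the level of genes with a mean of at least 5 CPM (10086), KO was over 2-fold above WT in 177 genes in replicate 1 and in 198 in replicate 2, and 24 genes were in both counts. KO was over 2-fold below WT in 98 and 114, with 13 in both. In 16 genes KO was over 2-fold above WT in replicate 1 and over 2-fold below it in replicate 2.

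**Figure D5:**
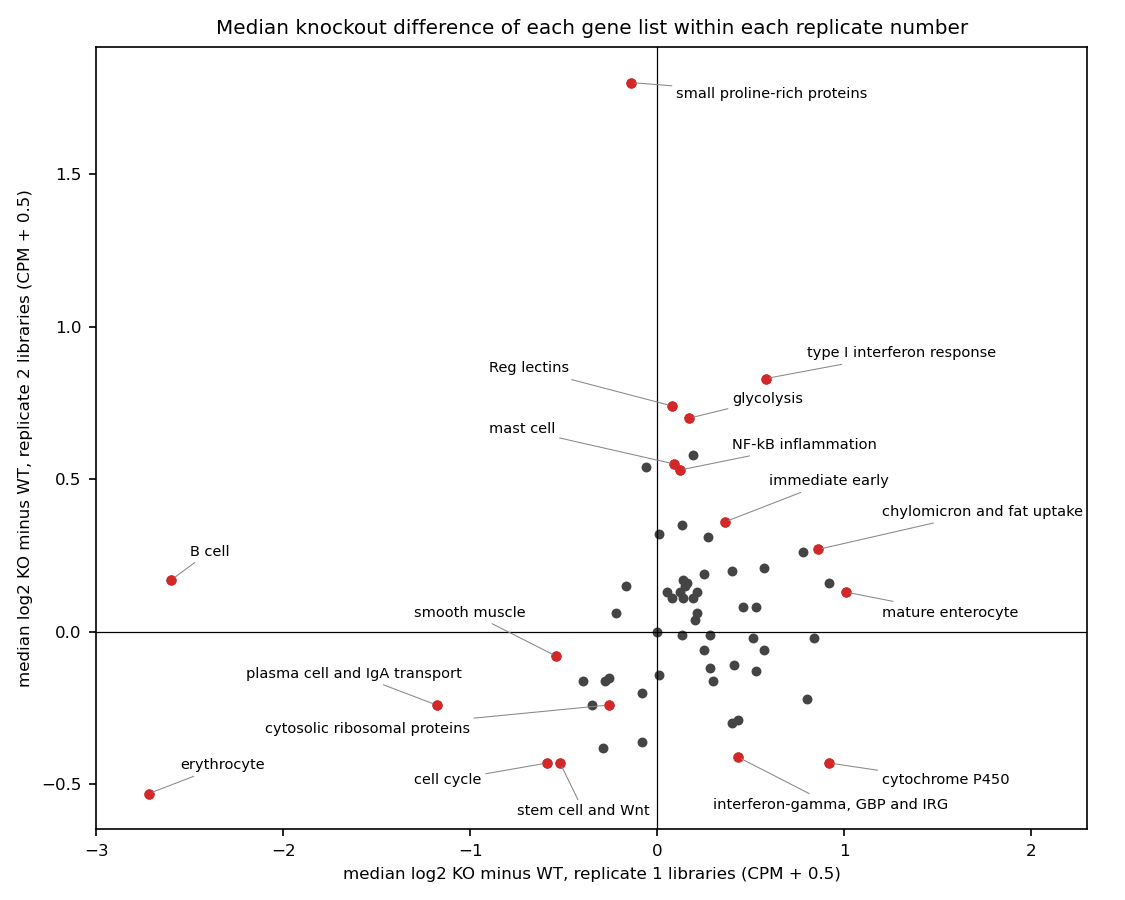
Median KO minus WT of each gene list within replicate 1 (horizontal axis) and within replicate 2 (vertical axis), as log2 of CPM + 0.5. Each point is 1 list and red points are named. Lists in the upper right are higher in KO in both replicate numbers, such as type I interferon at 0.58 and 0.83, and lists in the lower left are lower in both, such as cell cycle at -0.59 and -0.43.

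Whether the knockout difference was particular to whole tissue was tested against the LPL and IEL preparations, 2 WT and 2 KO libraries each. At an adjusted p under 0.05 the difference between KO effects was called in 0 genes against LPL (0%) and in 0 against IEL (0%) by edgeR's quasi-likelihood test, with 288 (1.96%) and 123 (0.836%) at an unadjusted p under 0.05. For Hsd17b6 the KO minus WT difference was 1.81 in tissue, 0.15 in LPL and 0.40 in IEL. For Tnip1 it was 0.72, -0.50 and 0.02, and for Il18 it was 1.31, 0.43 and 0.01. These genes were named for their small p or wide gap in tissue, so smaller differences in LPL and IEL can follow from that choice. Stem cell genes had medians of 0.21 in LPL and -0.22 in IEL, and cell cycle genes 0.01 and -0.22. None of these differences between preparations passed the adjusted test.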

How the data were processed

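Poly(A) RNA of flash-frozen small intestine had been sequenced with a NEBNext Ultra II RNA kit, per the labels' protocols. Raw read counts for each Entrez gene were deposited by library. The column titles name HISAT2 as the aligner, per the file headers, whereas the tools listed by the submitters include TopHat as well as featureCounts and DESeq, with the mm10 build and no versions, so the aligner is recorded in 2 ways. Whether strand was used in counting is not given in the sources used here. Symbols were found for 25275 of 27179 IDs (99.17% of reads) in RefSeq GRCm38.p6. The 2 deposited CD8 tables were not used.

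Groups and replicate numbers came from the titles. The 4 tissue libraries were fitted with the 8 LPL and IEL libraries as 6 groups in edgeR 4.0.16 (R 4.3.3, limma 3.58.1) by quasi-likelihood after filterByExpr, with TMM factors and an adjusted p (Benjamini-Hochberg) threshold of 0.05. CPM use TMM factors, and differences within a replicate number are of log2(CPM + 0.5). Each SE is the size of the log2 difference divided by the square root of the F statistic of the edgeR test. TMM factors were 0.730 to 1.03. DESeq2 1.42.0 was an alternative. Figures were drawn with Python 3.11.15, pandas 2.3.3 and matplotlib 3.10.9. Levels under 1 CPM rest on few reads and carry a large counting error.

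The tissue libraries, the 66 gene lists, the tests and the naming rule were chosen with earlier results of these data known. Named in full were up to 3 genes of a list with the smallest p, up to 15 genes per direction with the widest gap between nearest libraries (mean of at least 5 CPM), and the genes of the Il18rap locus. Other members are named for their role. A few genes that the rule or a list includes are not reported here. Tried beside these were DESeq2's size factors, its Wald test, no filter, the 4 tissue libraries alone, replicate blocks, leaving out each library, and, chosen after seeing the data, library totals. The fit was tested on simulated data of 14438 genes with 67, 67 and 66 genes changed 2-, 4- and 8-fold, and made 10 false calls.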

Additional observations from a re-analysis of the deposited data

How the results depend on the processing

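No gene passed the adjusted p of 0.05 in knockout against wild-type tissue in the edgeR fit of the 12 libraries, and the count stayed at 0 with DESeq2 size factors, without the filter on low counts, with the 4 tissue libraries alone and with library totals in place of normalization factors, an alternative added after the data were seen. The unadjusted p was under 0.05 for 463, 463, 503, 134 and 593 genes in these 5 fits. DESeq2's Wald test called 6 genes, Hsd17b6, Gprc5a, Tnks1bp1, Sec24d and Midn higher and Igkv4-59 lower. Leaving out 1 tissue library gave 0 to 3 calls. The 3 calls (Reg3a, Ppp1r15a and Chst4) came without knockout replicate 1, and 927 genes then had an unadjusted p under 0.05, against 315 without wild-type replicate 1. The difference of the knockout effect between tissue and either lymphocyte fraction gave 0 calls in every fit that was run. With the replicate number as a block the count was 0 as well, in the 12 libraries (1727 genes at an unadjusted p under 0.05), in the 4 tissue libraries alone (1313) and with a block in the tissue only (805). The labels do not say that a number marks a shared animal, litter or day. Deviations of same-numbered tissue libraries from their group means had a correlation of 0.668, but with 2 libraries a group the crossed numbers give the opposite sign by construction, so this does not show a pairing.

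Of 102 genes followed, 70 kept the sign of their log2 difference in every setting. With library totals the sign turned for Ddx3y (-0.10), Eif2s3y (-0.02), Gzmb (-0.13), H2-Ab1 (-0.01), Il18r1 (-0.15) and Rrm2 (-0.27). That scaling moved the median of all genes to -0.29. With the block in 12 libraries, in the 4 alone and in the tissue only, it turned for Gzmb (-0.18, -0.23 and -0.23) and Il1rl1 (0.03, 0.00 and 0.04). Leaving out 1 tissue library turned the sign of 32 genes, whose log2 differences then ran as follows: Axin2 -0.65 to 0.25, Cd36 -1.39 to 0.53, Cd3e -0.30 to 1.39, Clca1 -0.70 to 0.18, Ddx3y -7.11 to 10.73, Eif2s3y -10.94 to 11.16, Fabp1 -5.39 to 4.93, Gata4 -2.95 to 4.09, Gbp2 -1.16 to 1.06, Gzmb -1.44 to 0.80, H2-Ab1 -0.16 to 0.75, Ifng -0.94 to 0.87, Ighm -2.80 to 0.26, Il18r1 -0.04 to 0.23, Il18rap -0.59 to 1.73, Il1r2 -0.16 to 0.96, Il1rl1 -0.61 to 0.66, Il22 -3.16 to 4.18, Itln1 -0.95 to 0.41, Jchain -2.60 to 0.12, Lct -6.89 to 8.28, Ppp1r15a -0.20 to 2.53, Reg3b -0.29 to 1.68, Reg3g -0.08 to 2.21, Reg4 -3.57 to 0.92, Rrm2 -0.32 to 0.35, Saa1 -0.09 to 2.68, Slc10a2 -0.86 to 1.84, Slc2a2 -4.94 to 5.22, Slc9a2 -0.04 to 0.94, Socs3 -0.38 to 2.55 and Tnf -0.73 to 2.98. Of the 66 gene lists, 28 kept the sign of their median without each tissue library. With library totals 26 medians took the other sign, and 0 did relative to the all-gene median of that scaling.

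With 2 libraries a genotype, leaving out 1 leaves the Y-linked markers unequal between the genotypes, and the lone library is then assumed to vary like the others. The causes of these turns were not tested. A gene without a call is not shown to be equal in both genotypes.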
